A study of Mus musculus with 45 samples.

Results

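The genes described here are 9 enzymes that change the length and unsaturation of fatty acids: the desaturases Scd1, Scd2, Fads1 and Fads2 and the elongases Elovl1, Elovl2, Elovl3, Elovl5 and Elovl6. A binding site of the clock repressor REV-ERBα was counted for a gene when the summit of its peak lay inside the annotated span of the gene or within 50 kb of it. By this rule 64 of 27929 sites at zeitgeber time (ZT) 10 and 1 of 36 sites at ZT22 belonged to the 9 genes, among 21631 protein-coding genes of the autosomes and the X chromosome. The binding was mapped by chromatin immunoprecipitation with sequencing (ChIP-seq) in liver of REV-ERBa3HA/3HA mice, in which the endogenous protein carries a 3HA tag, with anti-HA beads and without any AAV injection. There were 4 samples at ZT10 and 4 at ZT22, counted in hours from lights on, and the authors pooled them into 1 peak list per time. The labels give neither the age of the mice nor whether each sample came from a separate animal. The other 37 of the 45 samples, among them input, anti-HA on B6-WT liver without the tag, histone marks and NCOR1, were not analysed here. There is thus no spread between replicates, no test between the times or between genes was possible, and every comparison below is a description of these pools.

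REV-ERBα is a nuclear receptor that binds DNA in a daily rhythm and represses nearby genes by bringing in the corepressor NCOR and its histone deacetylase. In liver it is known for timing lipid synthesis as well as the clock itself. Stearoyl-CoA desaturases put the first double bond into saturated fatty acids, the FADS enzymes add further double bonds to polyunsaturated fatty acids taken from the diet, and ELOVL enzymes carry out the slow condensing step by which a fatty acid is lengthened.

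The strength of a site is given below as the authors' fold enrichment of the summit over the local background, a value of the peak itself. Its interval is the exact Poisson interval at 95% of the fragments counted at that summit, which were solved from its fold together with its −log10 p, and it covers counting error only. The 64 sites at ZT10 held 83 to 1495 fragments at the summit (median 197). The lowest fold of any peak was 4.006 at ZT10 and 4.079 at ZT22, so a gene without a site may still have weaker binding. In whole liver, binding in fewer cells and weaker binding per cell cannot be told apart.

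REV-ERBα sites lay at 8 of the 9 genes at ZT10 and were numerous at each of the 8, while Scd2 had none. A site is common near any gene, since 70.5% of protein-coding genes had at least 1 within the same reach. The number of sites stood further from the background. At least 5 sites were found at 8 of the 9 genes and at 26.6% of all genes, and the median was 7 sites per gene against 2 over all genes. Elovl6 had 14 sites, Elovl5 11, Fads2 9, Scd1 and Elovl2 7 each, Fads1 and Elovl3 6 each, and Elovl1 5. These counts depend on the reach: with 10 kb Fads2 had 4, Elovl5 7, Scd1 4, Fads1 and Elovl3 3 each and Elovl1 2. With 100 kb Fads2 had 18, Fads1, Elovl3 and Elovl1 10 each and Scd2 3. Elovl6 and Elovl2 stayed within 1.5 times their count in both. Elovl6 is also the longest of the 9 genes at 106.1 kb, and per 100 kb of gene and flanks the 8 genes were closer together, from 4.71 sites at Elovl1 to 6.79 at Elovl6, where the median of all genes was 1.60. Peaks covered from 12.2% of that window at Elovl1 to 32.3% at Elovl3, against a median of 2.32% over all genes. At Elovl3, 20.1 kb of the 33.5 kb covered belonged to 1 peak, whose summit lay 31.9 kb away and nearer to Nolc1. Genes that are silent in liver are part of this background, and a comparison with liver-expressed genes alone was not made.

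**Figure D1:**
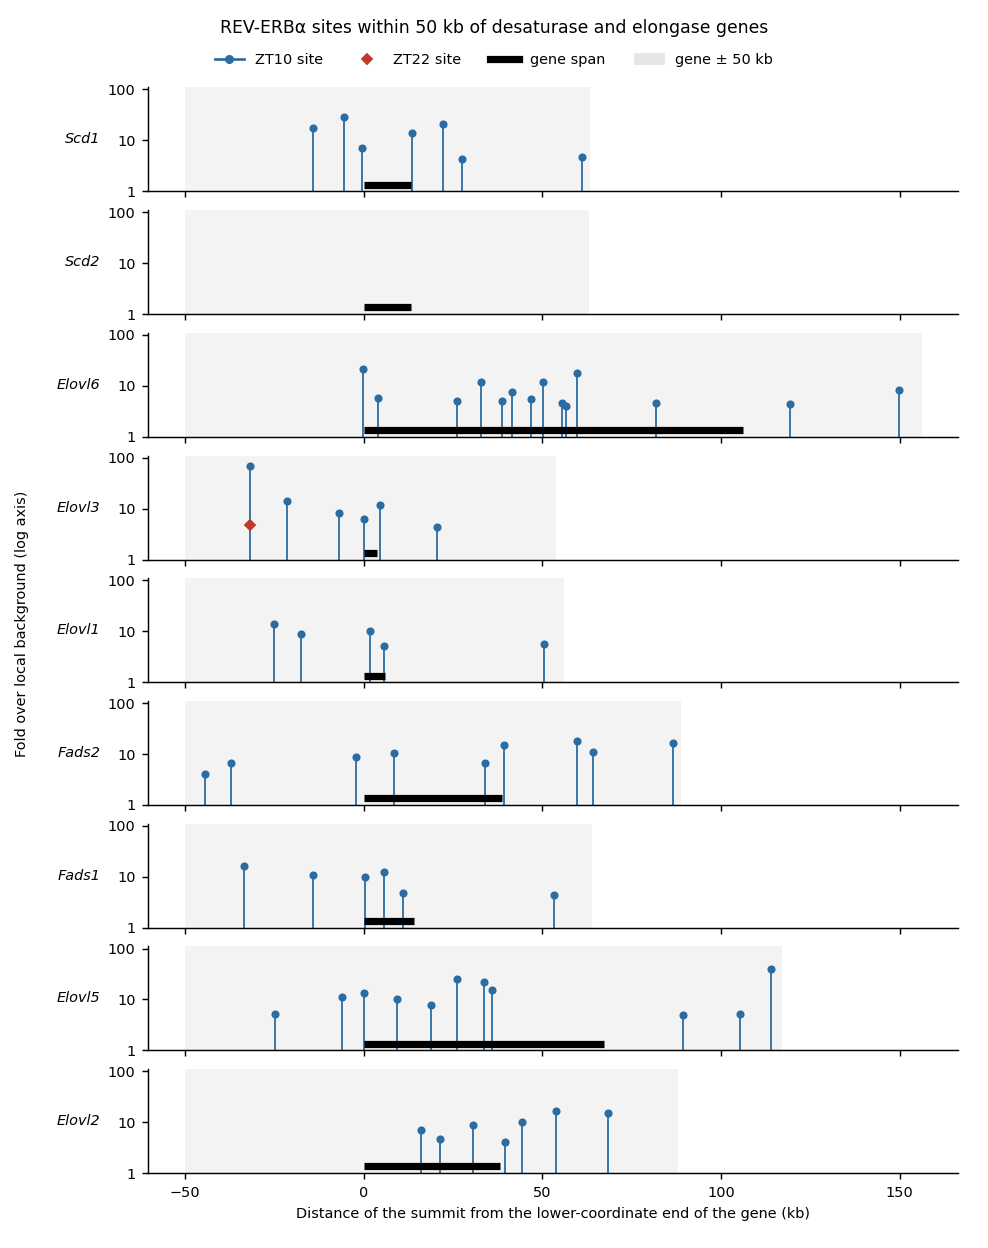
Position and strength of every site. Each row is 1 gene, the horizontal axis is the distance of the summit from the lower-coordinate end of the gene in kb, the vertical axis is the fold over local background on a log axis, circles are ZT10 sites and the diamond is the ZT22 site. Scd2 has no site, Elovl6 has 11 of its 14 inside the gene, and the ZT22 site lies at the strongest ZT10 site of Elovl3.

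**Figure D2:**
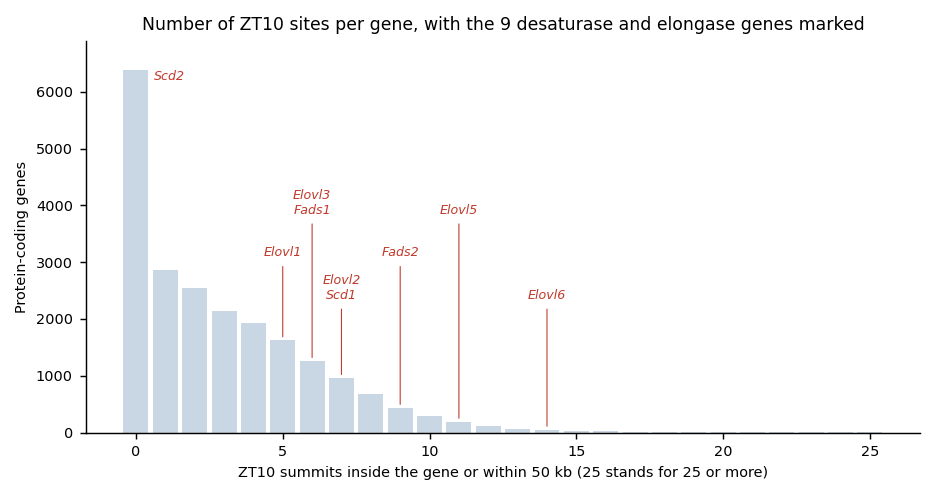
Number of ZT10 sites per gene. Bars count protein-coding genes by the number of ZT10 summits inside the gene or within 50 kb, and the 9 genes are marked. Scd2 stands with the genes that have 0 sites, and the other 8 stand at 5 to 14.

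Of the 64 sites, 27 lay inside one of the 9 genes, 9 inside a neighbouring protein-coding gene and 28 outside protein-coding genes. A site inside the gene was found at 7 of the 9 genes, all but Scd1 and Scd2, and at 36.2% of all protein-coding genes. Only 1 site was counted for a pair of the 9 genes, namely Fads1 and Fads2. The median fold was 8.99, against 6.81 for all ZT10 peaks, and 40 of the 64 were above that list median. Weak and strong sites stood side by side, and 2 of the 64 were among the 100 strongest of the 27929 in the list. Those 2, counted for Elovl3 and Elovl5, were nearer to Nolc1 and Gcm1. Peaks were 539 to 20138 bp wide (median 2784 bp, against 1679 bp over the list). The local background was above its lowest value of 4.14 at 8 of the 64 sites, with 7.0 as the highest. These are values of a scaled read depth, in which 1 fragment at ZT10 counts as 0.236. Where the background was raised, the order by fold could differ from that by fragments. The site shared by Fads1 and Fads2 had 415 fragments and a fold of 16.5, against 390 and 18.1 at the strongest of Fads2. At Elovl3 a site of 6.25 had 181 fragments and one of 8.10 had 172. At Elovl2 a site of 6.96 had 202 and one of 8.97 had 191.

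Scd1 and Scd2 are neighbouring paralogs on chromosome 19, 87.6 kb apart, and sites were found at one and not at the other. Scd1, the main stearoyl-CoA desaturase of adult mouse liver, had 7 sites, all outside the gene and on both sides of it. The strongest lay 5518 bp from the lower-coordinate end with a fold of 28.6 (26.4 to 31.0), number 298 of the list by strength. It was flanked by a site of 17.6 (15.9 to 19.4) at 14095 bp and by a weak one of 6.96 (5.94 to 8.12) at 536 bp. On the other side, a site 205 bp beyond the higher-coordinate end had a fold of 14.3 (12.8 to 16.0). Farther out on that side followed a site of 20.6 (18.8 to 22.6) at 8884 bp and 2 weak ones of 4.37 at 14351 bp and 4.70 at 47924 bp. The last of these is nearer to Wnt8b than to Scd1.

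Scd2, which in the mouse is known mainly from brain and from the liver and skin of young animals, had no ZT10 site. Its gene is about as long as Scd1, 13.2 kb against 13.3 kb. It lies within a stretch of 232.2 kb without any ZT10 peak, which also holds Pkd2l1 and the paralogs Scd3 and Scd4. The nearest summits to Scd2 were those 73.5 kb away at Scd1 and 147.1 kb away on the other side, nearest to Bloc1s2, with a fold of 8.33. The site of Scd1 nearest to Scd2 lay beyond Scd4, which stands between the pair. With a reach of 100 kb Scd2 was given 3 sites, all of which were those of Scd1.

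Elovl6, on chromosome 3, encodes the elongase that turns palmitate into stearate, the substrate of SCD1. Its strongest site lay at its start, with a summit 275 bp before the listed start and a fold of 21.7 (19.8 to 23.7), in a peak of 8.72 kb. This was the strongest summit within 1 kb of a gene end among the 9 genes. Another 11 sites lay inside the gene, with folds from 4.01 to 17.6, and the strongest of these was 59593 bp after the start. Between the start and that site the gene also held summits of 12.1 (10.7 to 13.6) and 11.8 (10.4 to 13.3). The other 8 inside the gene were at or below 7.68. Near the 8 genes, 10 pairs of neighbouring peaks were separated by only 95 to 131 bp, 4 of them at Elovl6 and 3 at Elovl5, so the number of sites depends on where the caller ended a peak. When peaks within 200 bp of each other were joined, the 64 sites became 54.

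Elovl3, on chromosome 19, encodes an elongase of saturated and monounsaturated fatty acids whose mRNA is known to cycle in mouse liver. The strongest site near any of the 9 genes lay 31900 bp from its lower-coordinate end, with a fold of 68.9 (65.4 to 72.4) and 1495 fragments at the summit. It was the 8th strongest peak of the ZT10 list, and its peak of 20138 bp was the 15th widest. The site lies between Nolc1 and Elovl3, outside protein-coding genes, and is nearer to Nolc1 (14454 bp), which encodes a nucleolar protein. Which gene it acts on was not tested.

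The sites closer to Elovl3 were weaker. On the side of the distant peak they had folds of 14.4 (12.8 to 16.1) at 21398 bp, 8.10 (6.96 to 9.37) at 7035 bp and 6.25 (5.39 to 7.204) at 36 bp inside the lower-coordinate end. A site of 11.7 (10.3 to 13.2) lay 710 bp beyond the other end, inside the neighbouring gene Pitx3. The last, of 4.42, lay 71 bp from Gbf1. Without the distant peak, the strongest fold of Elovl3 was thus 14.4, close to that of Elovl1.

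The only ZT22 site near the 9 genes lay under this distant peak. It made Elovl3 1 of 9 genes with a ZT22 site in reach, as had 0.157% of all protein-coding genes. Its summit was 1 bp from the ZT10 summit. The ZT22 peak was 565 bp wide and had a fold of 4.74 (3.88 to 5.75), with 96 fragments at the summit (78 to 117 by counting error). At ZT10 the same position held 1495 fragments (1420 to 1573). The ZT22 pool had 0.97 times as many fragments as that of ZT10 by the steps of the fold values, which assumes 1 control for both lists. Allowing for this, the ZT10 summit was 15.1 times as high (12.3 to 18.8, exact binomial interval for counting error only). This ratio has no replicate check. Liver without the tag was not used here, so the share of the ZT22 signal that comes from the tagged protein was not tested. The other 63 sites had no ZT22 peak over them, including that of Elovl5 with a ZT10 fold of 38.9. The same holds for nearly all ZT10 peaks, since the whole lists hold 27929 peaks at ZT10 and 36 at ZT22.

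**Figure D3:**
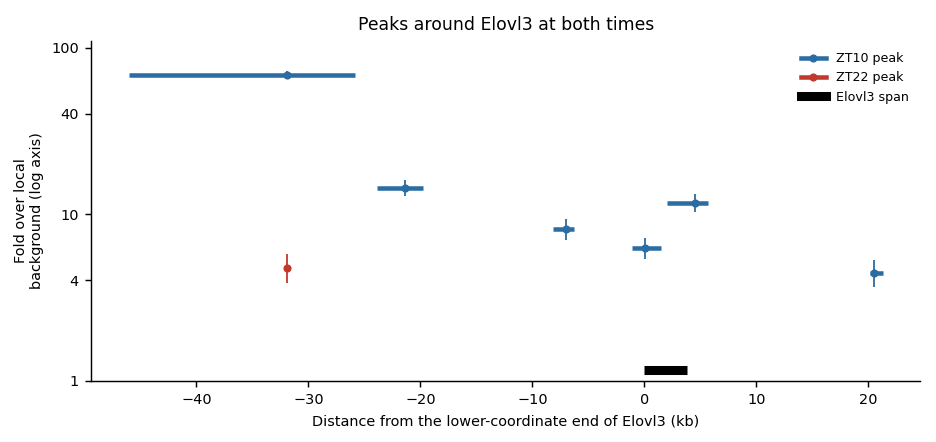
Peaks around Elovl3 at both times. The horizontal axis is the distance from the lower-coordinate end of the gene in kb and the vertical axis the fold over local background on a log axis; horizontal lines span each peak, dots are summits and vertical bars are counting intervals at 95%. The peak 31.9 kb away has a fold of 68.9 at ZT10 and 4.74 at ZT22, and the other 5 ZT10 peaks have none at ZT22.

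Elovl1, on chromosome 4, encodes an elongase that makes saturated and monounsaturated fatty acids of very long chain, and within 50 kb it had the fewest sites of the 8 genes and the lowest maximum. Neither holds with a reach of 100 kb, where it had 10 sites and a maximum of 20.9, and with one of 10 kb the maximum of Elovl2 was lower. The 2 inside the gene had folds of 10.3 (9.01 to 11.7) and 5.06 (4.18 to 6.08), and the stronger lay 458 bp after a listed start. The other 3 lay inside neighbouring genes, among them sites of 9.01 (7.81 to 10.4) in Med8 and 5.75 (4.81 to 6.84) in Tie1. When a site counted only for the gene nearest to it, Elovl1 thus had 2 sites.

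Fads1 and Fads2 encode the desaturases that work in sequence on polyunsaturated fatty acids. They lie on chromosome 19, 81.4 kb apart with no protein-coding gene between them, and unlike the Scd pair both had sites. Fads2 had 9 and Fads1 had 6, with the site between them counted for both. The interval between them held 5 sites with folds of 10.9 to 18.1. The strongest site of Fads2 was in that interval, with a fold of 18.1 (16.4 to 19.98), 20967 bp before its listed start. The next was the shared one, 47865 bp from Fads2 and 33509 bp from Fads1, with a fold of 16.5 (14.96 to 18.1). This shared site is the strongest of Fads1. Just outside the reach of 50 kb lay sites of 15.6 at Scd1, 50951 bp away, of 8.14 at Elovl3, 55818 bp away. A site of 10.9 that is counted for Fads2 lay 55863 bp from Fads1, also out of reach.

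At the ends that face each other, each of the paralogs had a peak that ran across the end of the gene. Fads1 has no listed start here, so its sites are placed from the end of its span. Fads2 had a summit 656 bp before its listed start with a fold of 15.4 (13.8 to 17.1) in a peak of 6.98 kb. Fads1 had its summits inside the gene, of 9.93 (8.67 to 11.3) at 315 bp from the lower-coordinate end and 12.2 (10.9 to 13.6) deeper in the gene, besides a weak one of 4.83 (3.97 to 5.83). The peaks of the stronger pair were 96 bp apart. Inside Fads2 the summits had folds of 10.5 (9.18 to 11.9) and 6.67 (5.65 to 7.83). A further site of 8.74 (7.55 to 10.1) lay between Fads2 and its paralog Fads3, 490 bp from the latter. The 3 sites inside other genes, of 4.05 and 6.76 in Rab3il1 and 4.42 in Myrf, were all below the median of the list.

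Elovl5 and Elovl2 lengthen the products of the FADS enzymes, Elovl2 those of longest chain. Elovl5, on chromosome 9, had 11 sites and the second strongest summit of the 9 genes. That summit had a fold of 38.9 (36.3 to 41.6) and lay 46691 bp beyond the higher-coordinate end of the gene. It is nearer to Gcm1 (20748 bp), a gene known from placenta. Inside Elovl5, the 4 peaks from 77934989 to 77956410 formed a run of 21.4 kb with 98.5% of its length in peaks. Their folds were 7.68 (6.58 to 8.92), 24.95 (22.9 to 27.1), 22.2 (20.3 to 24.3) and 15.4 (13.8 to 17.2), and the strongest lay 26247 bp after the start. A summit of 13.2 (11.8 to 14.8) lay 40 bp before the listed start, closer than at any other gene with a listed start. The remaining 5 sites had folds of 4.93 to 11.1.

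Elovl2, on chromosome 13, had 7 sites, and those near its start were weak. The nearest summit to a listed start had a fold of 4.05 (3.27 to 4.97), 1407 bp before it, and no summit lay within 1 kb of either end of the gene. The strongest sites lay outside, on the side of the start, with folds of 16.8 (15.1 to 18.6) at 15717 bp and 14.9 (13.3 to 16.6) at 30350 bp, the latter inside Smim13. Both are nearer to Smim13 than to Elovl2. Between them and the gene stood a site of 9.93 (8.67 to 11.3) at 6343 bp. Inside the gene the folds were 8.97 (7.77 to 10.3), 6.96 (6.05 to 7.96) and 4.70 (3.85 to 5.68), and the first of these belonged to a peak of 10.9 kb that ran from the gene body to its start. The 4 genes of polyunsaturated fatty acids together had 32 distinct sites with a median fold of 10.2. The 5 genes of saturated and monounsaturated fatty acids, Scd2 included, also had 32, with a median of 7.89. Of these 32, 14 were those of Elovl6, with a median of 5.65. The medians of Scd1, Elovl3 and Elovl1 were 14.3, 9.89 and 9.01, and those of the polyunsaturated genes ran from 8.97 at Elovl2 to 11.1 at Elovl5.

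**Figure D4:**
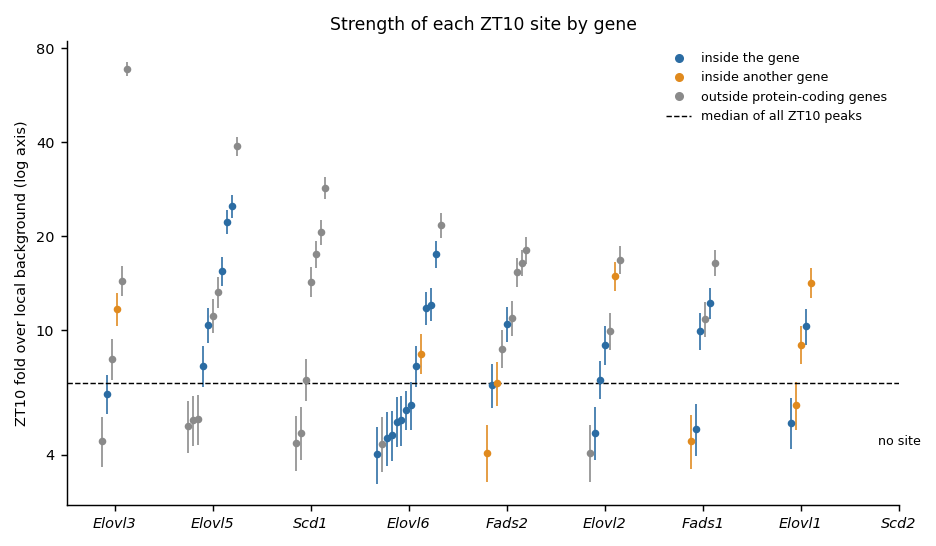
Fold of each ZT10 site by gene. Genes are ordered by their strongest site, dots are sites coloured by place, bars are counting intervals at 95%, the vertical axis is logarithmic and the dashed line is the median of all ZT10 peaks (6.81). The site between Fads1 and Fads2 is drawn for both, and Elovl3, Elovl5 and Scd1 reach highest.

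By the strongest site, the order of the genes was Elovl3 (68.9), Elovl5 (38.9), Scd1 (28.6), Elovl6 (21.7), Fads2 (18.1), Elovl2 (16.8), Fads1 (16.5) and Elovl1 (14.2). The counting intervals of Elovl3, Elovl5, Scd1 and Elovl6 did not overlap with each other. From Elovl6 down, the interval of each gene overlapped with that of the next. Of all protein-coding genes, 99.9% had a lower strongest fold than Elovl3, 99.4% than Elovl5 and 79.4% than Elovl1. With a reach of 100 kb Elovl1 (20.9) came after Elovl6, ahead of Fads2 and Fads1 (18.1 each) and Elovl2 (16.8). The order at 50 kb rests on distant sites, since with a reach of 10 kb it was Scd1 (28.6), Elovl5 (24.95), Elovl6 (21.7), Fads2 (15.4), Fads1 (12.2), Elovl3 (11.7), Elovl1 (10.3) and Elovl2 (9.93).

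Near the ends of the genes, start or not, the order differed again. A summit within 1 kb of either end was found at 7 of the 9 genes, against 32.7% of all protein-coding genes, and Scd2 and Elovl2 lacked one. The summits nearest to an end had folds of 21.7 at Elovl6, 15.4 at Fads2, 14.3 at Scd1, 13.2 at Elovl5, 9.93 at Fads1, 6.25 at Elovl3 and 5.06 at Elovl1. That of Elovl1 lay at the far end of the gene, and the summit nearest to a listed start, inside the gene, had the fold of 10.3 given above. Elovl3 and Scd1 each had another summit within 1 kb of the other end. It had a fold of 11.7 at Elovl3, above that of Fads1, and of 6.96 at Scd1. The intervals of Fads2, Scd1 and Elovl5 overlapped, so counting error does not separate these 3.

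Sequence before the start was taken for the 5 genes that the table of RefSeq promoters (GRCm38.p6, which has the coordinates of mm10) holds, namely Elovl1, Elovl2, Elovl5, Elovl6 and Fads2, with 7 windows of 250 bases before to 50 after a listed start. All 7 windows were touched by a ZT10 peak, as were 30.2% of all windows in the table. The 250 bases before a start are shown for each, 5′ to 3′ on the strand of the gene, because they lie under or beside the peaks described above. Capitals mark matches to the half-site AGGTCA bound by REV-ERBα, to the E-box CACGTG bound by the clock activators BMAL1 and CLOCK, and to the CCAAT box, each searched on both strands.
Elovl6, chr3:129532136-129532385, plus strand: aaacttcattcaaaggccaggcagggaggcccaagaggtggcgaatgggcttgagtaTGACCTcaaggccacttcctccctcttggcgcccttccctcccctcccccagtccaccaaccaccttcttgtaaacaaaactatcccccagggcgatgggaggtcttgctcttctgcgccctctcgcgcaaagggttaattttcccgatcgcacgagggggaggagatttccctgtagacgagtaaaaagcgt
Elovl5, chr9:77917115-77917364, plus strand: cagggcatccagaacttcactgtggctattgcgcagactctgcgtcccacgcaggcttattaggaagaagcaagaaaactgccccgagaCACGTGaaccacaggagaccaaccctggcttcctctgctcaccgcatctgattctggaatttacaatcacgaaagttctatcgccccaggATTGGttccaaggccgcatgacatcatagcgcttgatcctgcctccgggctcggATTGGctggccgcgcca
Fads2, chr19:10101504-10101753, minus strand: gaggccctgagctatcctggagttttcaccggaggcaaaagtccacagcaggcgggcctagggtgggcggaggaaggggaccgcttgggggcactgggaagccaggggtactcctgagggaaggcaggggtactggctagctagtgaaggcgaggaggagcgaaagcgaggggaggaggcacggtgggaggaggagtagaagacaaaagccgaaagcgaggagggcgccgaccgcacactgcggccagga
Elovl1, chr4:118427843-118428092, plus strand: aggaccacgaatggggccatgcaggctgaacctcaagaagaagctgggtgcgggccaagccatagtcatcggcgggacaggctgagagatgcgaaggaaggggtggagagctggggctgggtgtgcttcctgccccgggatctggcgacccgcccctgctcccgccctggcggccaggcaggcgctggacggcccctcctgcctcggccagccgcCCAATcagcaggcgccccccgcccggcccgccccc
Elovl2, chr13:41220404-41220653, minus strand: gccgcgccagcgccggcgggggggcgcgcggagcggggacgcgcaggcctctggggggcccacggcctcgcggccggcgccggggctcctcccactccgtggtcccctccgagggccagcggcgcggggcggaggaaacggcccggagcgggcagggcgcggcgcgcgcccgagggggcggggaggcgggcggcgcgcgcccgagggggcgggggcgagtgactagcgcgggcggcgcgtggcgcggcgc

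The strongest start, that of Elovl6, held 1 half-site on the opposite strand, 193 bases before the start. The window of Elovl5 held an E-box 161 bases before the start and CCAAT boxes on the opposite strand at 71 and 17 bases. That of Elovl1 held a CCAAT box at 35 bases, and a second listed start of this gene, not shown, had a half-site 95 bases before it. The windows of Fads2 and Elovl2 held none of these letters, although the whole window of Fads2 lay inside a peak with a fold of 15.4. The window shown for Elovl2 is 84.7% G and C, against a median of 53.0% over the table, and only 53 of its 300 bases lay in a peak. At a second listed start of Elovl2, not shown, 294 of the 300 bases lay in that peak, of fold 8.97. Among all 32619 windows, 16.2% held the half-site, 7.198% the E-box and 37.6% the CCAAT box. Of the 9838 windows touched by a ZT10 peak, as all 7 here were, 1353 held the half-site, 1077 the E-box and 3763 the CCAAT box. A direct repeat of the half-site with NN between its copies, which therefore also counts as a half-site match, was in none of the 7 windows and in 3 of all. A match is only a run of letters and is not shown to be bound, and no match says nothing about sequence elsewhere under a peak.

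Other genes of the same pathway were looked at by the same rule. Of 21 such genes, 19 had a ZT10 site, against the 70.5% of all genes, with a median strongest fold of 12.6 where that of all genes with a site was 10.0. Those without a site were Scd3 and Hacd4, which encodes a dehydratase of the elongation cycle. The paralogs outside the 9 were the weakest group: Elovl4 and Elovl7 had 1 site each, of 5.11 and 4.37, Fads6 had 3 up to 8.95, and the strongest sites of Scd4 (28.6) and Fads3 (15.4) were those already described for Scd1 and Fads2. The enzymes of the other steps of elongation, Hsd17b12, Hacd1, Hacd2, Hacd3 and Tecr, had strongest folds of 10.7 to 14.2. These sites lay 18.0 to 49.7 kb away at Hsd17b12, Hacd1 and Hacd2, 0.215 kb away at Hacd3 and inside Tecr. Among the genes that supply electrons to desaturases, Cyb5a, the microsomal cytochrome b5, had 9 sites up to 32.1. All 6 genes of factors that control this pathway had sites. The strongest was inside Mlxipl, which encodes the carbohydrate-responsive factor ChREBP, with a fold of 38.0. Ppara, which encodes a fatty acid receptor, had 15 sites up to 24.7, and Srebf1, which encodes SREBP1, had 4 up to 9.47.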

How the data were processed

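ChIP-seq for 3HA-tagged REV-ERBα was made from mouse liver nuclei fixed with formaldehyde and EGS, and Tn5-tagmented for sequencing, as the labels' protocols state. The authors pooled 4 samples per time into 1 deposited peak list, per the labels. Tools named in the submitters' processing notes, with no role or order, are MACS2 2.1.2, BWA 0.7.17, cutadapt 2.3, Picard 2.18.12, SAMtools 1.9, deepTools 3.3.0 and bcl2fastq 2.17; the build is mm10. The sources used here do not say which library was the control. Each deposited peak has a fold over local background, a −log10 p and a −log10 q, and a score that repeats the q and was not used. Peak numbers in the deposited lists ran to 50041 at ZT10 and 78 at ZT22, so the lists leave out numbered peaks.

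Summits are the peak start plus the deposited offset. Gene spans came from a RefSeq table (GRCm38.p6); it gives no exons, so sites are placed inside or outside genes only. The place of 1 site is not reported here. Starts came from the promoter table, and Scd1, Scd2, Fads1 and Elovl3 were not matched there. Read totals are not in the lists. Fragments at a summit were solved from fold and −log10 p with a pseudocount of 1 and the lowest background of 4.14; 98.6% of ZT10 and 94.4% of ZT22 summits came out within 0.1 of a whole number, and 174 and 1 were not solved. Scripts used Python 3.11.15, numpy 2.4.6, pandas 2.3.3, scipy 1.17.1 and matplotlib 3.10.9 and were tested on simulated data. Because each time is a single pool, samples could not be tested and p-values are not given. The tissue label was not checked, since peak lists hold no expression.

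The genes, the lists and the motifs were chosen with earlier results of these data known. Named are all 9 genes, their strongest, nearest and inside sites, the ZT22 site, and pathway genes with no site or the 3 strongest; other named pathway genes and sites were chosen after their values were seen. Alternatives tried were stricter peaks (−log10 q from 10 up), a reach of 10 or 100 kb, counting for the nearest gene only, placement by any base of a peak, other overlaps, −log10 q as strength, a pseudocount of 0 and joined peaks.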

Additional observations from a re-analysis of the deposited data

How the results depend on the processing

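No paired analysis was possible because each time is a single pooled list, from which no replicate can be left out either. Joining peaks within 200 bp was chosen after seeing the data and gave 54 sites. The number of ZT10 sites was 40 with a reach of 10 kb, and 48 to 85 under the other alternatives. The median per gene was 4 with a reach of 10 kb, against 7, and 5 to 10 otherwise. With the nearest gene only, Fads2 had 5 sites, Elovl3 3 and Elovl1 2. Genes with a site numbered 8 throughout, except 9 with a reach of 100 kb, where Scd2 was given the sites of Scd1. The median strongest fold of 19.9 was 13.8 with a reach of 10 kb and 17.3 with the nearest gene only. At 10 kb the strongest fold moved outside its counting interval at 6 of 8 genes, by construction, since distant sites drop out. By −log10 q, 6 of 8 genes kept their place in the order, and Elovl2 and Fads1 changed places. The ZT22 site dropped out among stricter peaks (−log10 q from 10 up) and at a reach of 10 kb (0 sites each), and 0 were shared with at least 50% of each peak covered, since the ZT10 peak is far wider. A pseudocount of 0 gave a median of 112.2 fragments against 197, but only 3.86% of ZT10 peaks then had a common background and 52 of the 64 sites could not be solved. Counting intervals leave out the spread between animals, which a pooled list does not hold.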
